A study of Mus musculus with 20 samples.

Results

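The comparison described here is that of D + Q with vehicle across both surgeries, which asks what the senolytic treatment did to plantaris gene expression whether or not the muscle was overloaded. Its members are all 20 mice of the series, 10 given D + Q and 10 given vehicle, entered in 1 additive model of surgery plus treatment, and the features are the 15700 genes that reached 10 counts in 5 or more mice. The treatment joined 2 oral drugs, dasatinib at 5 mg/kg, which inhibits tyrosine kinases, and the plant flavonoid quercetin at 50 mg/kg. Vehicle mice received PEG 400 without either drug. The mice were old (2 years in the labels) male C57BL/6J mice, and each surgery (sham or MOV) had 5 mice on vehicle and 5 on D + Q. MOV is mechanical overload of the plantaris by synergist ablation, and sham mice had the operation without it. Gavage was on days 7 and 10 and muscle was collected on day 14, although the submitters' text puts the later sham dose on day 14, so the time from last dose to collection in sham mice is uncertain. The 4 groups are different mice and share no animals. The RNA came from whole muscle, so that fewer cells of a type and less RNA per cell cannot be told apart.

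Senescent cells have left the cell cycle for good and release inflammatory and matrix-cutting proteins, jointly termed the senescence-associated secretory phenotype (SASP). Senolytics are drugs meant to remove such cells by blocking the survival pathways on which they depend, and no count of senescent cells is among the values here. Dasatinib also inhibits Src family, Abl, Kit, PDGF and ephrin receptor kinases in cells that are not senescent. In skeletal muscle the connective tissue between fibers is laid down by fibroblasts and, at the tendon ends, tenocytes. Its fibrillar collagens are spaced by small leucine-rich proteoglycans and are cut and remodelled by metalloproteinases and Adamts proteases.

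The libraries held between 17887532 and 26234518 counts per mouse, and the 10 most abundant genes took between 16.0% and 24.2% of them. Acta1, the actin of skeletal muscle fibers, was at 23751 ± 1020 CPM (SD, n = 5) in vehicle sham muscle, and the fast myosin Myh4 was at 58568 ± 5746 CPM (SD, n = 5), as the labelled tissue would have. CPM is the gene's count scaled by its library's TMM-adjusted total, and levels are given on this scale throughout, whereas log2 fold changes are D + Q minus vehicle from the model. Along the main axis of variation within groups, which held 13.9% of the within-group variance, vehicle MOV mouse 2 and vehicle MOV mouse 4 lay at opposite ends (-38.1 and 37.7 against -14.8 to 23.6 for the other mice), and counts of calls are therefore also given without them. Vehicle sham mouse 2 stood apart on the second such axis.

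Of 15700 genes tested, 4 (0.0255%) had an adjusted p under 0.05 for D + Q against vehicle over both surgeries, and each was higher with D + Q. The 4 were Itgbl1, Fmod, Prelp and Soga1. Fibromodulin (Fmod) and Prelp are small leucine-rich proteoglycans that bind collagen, Itgbl1 is a secreted protein whose repeats resemble the stalk of integrin β chains, and Soga1 was named as a suppressor of glucose output by autophagy. No gene was lower at that threshold. At an unadjusted p under 0.05, called nominal from here on, 2075 genes differed, of which 1166 (7.43% of those tested) were higher and 909 (5.79%) were lower. The median log2 fold change over all tested genes was 0.0078. With libraries scaled by their total counts alone, 1602 genes were nominally higher and 457 lower, so the balance between directions depends on the scaling.

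Itgbl1 lies on the plus strand at chr14:123897383-124215765 (GRCm39), overlapped on the opposite strand by Fgf14. In sham muscle Itgbl1 was at 4.10, 3.34, 3.42, 4.95 and 4.83 CPM in the vehicle mice and at 4.36, 6.70, 5.81, 5.34 and 5.60 CPM in the D + Q mice. In MOV muscle it was at 38.0, 31.4, 33.5, 38.5 and 39.4 CPM with vehicle and at 55.8, 45.2, 52.5, 54.0 and 49.3 CPM with D + Q. The MOV groups did not overlap, whereas in sham muscle D + Q mouse 1 lay below vehicle mice 4 and 5. Over both surgeries Itgbl1 rose by a log2 fold change of 0.48 ± 0.074 (SE), which is 1.39-fold (adjusted p = 0.0145). The opposite-strand gene Fgf14 had a log2 fold change of 0.21 ± 0.326 (SE, adjusted p = 0.839), and whether counting used the strand is not given in the sources used here.

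Fmod lies on the plus strand at chr1:133964992-133976015 (GRCm39) and overlaps no other gene. It was at 38.4, 29.8, 34.7, 45.0 and 31.5 CPM in vehicle sham mice and at 47.0, 50.5, 57.1, 40.9 and 52.6 CPM in D + Q sham mice. In MOV muscle it was at 115, 96.4, 98.8, 125 and 127 CPM with vehicle and at 157, 133, 146, 165 and 160 CPM with D + Q. The lowest D + Q MOV mouse lay above the highest vehicle MOV mouse, and in sham muscle the groups overlapped through vehicle mouse 4 and D + Q mouse 4. Fmod rose by a log2 fold change of 0.45 ± 0.073 (SE), which is 1.37-fold (adjusted p = 0.0151), with similar values in sham (0.46 ± 0.112, SE) and MOV (0.43 ± 0.0918, SE).

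Prelp is the neighbor of Fmod on the other strand, at chr1:133837335-133857971 (GRCm39), with 107 kb between the gene bodies. It was at 19.0, 16.2, 19.2, 23.0 and 19.9 CPM in vehicle sham mice and at 22.2, 30.6, 28.8, 27.3 and 27.5 CPM in D + Q sham mice. In MOV muscle it was at 62.3, 47.6, 61.9, 72.3 and 51.3 CPM with vehicle and at 84.1, 77.5, 68.1, 94.9 and 79.3 CPM with D + Q. In sham muscle only D + Q mouse 1 was below the highest vehicle mouse, and in MOV muscle only D + Q mouse 3 was. Prelp rose by a log2 fold change of 0.47 ± 0.077 (SE), which is 1.38-fold (adjusted p = 0.0151), and its adjusted p was 0.0531 with total counts alone.

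Soga1 was at 3.73, 2.65, 3.93, 3.32 and 3.42 CPM in vehicle sham mice and at 6.98, 7.68, 6.64, 4.62 and 6.27 CPM in D + Q sham mice. In MOV muscle it was at 9.04, 7.58, 11.9, 14.9 and 9.55 CPM with vehicle and at 16.3, 12.8, 16.2, 13.8 and 15.4 CPM with D + Q. The sham groups did not overlap, and vehicle MOV mouse 4 lay within the D + Q MOV range. Soga1 rose by a log2 fold change of 0.67 ± 0.117 (SE), which is 1.59-fold (adjusted p = 0.0215), with 0.90 in sham and 0.49 in MOV muscle. The call was near the threshold, as the adjusted p lay between 0.0506 and 0.0578 in 8 of the 20 fits that left out 1 mouse and was 0.0531 with total counts alone. Soga1 has no entry of that symbol in the annotation used for positions.

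**Figure D1:**
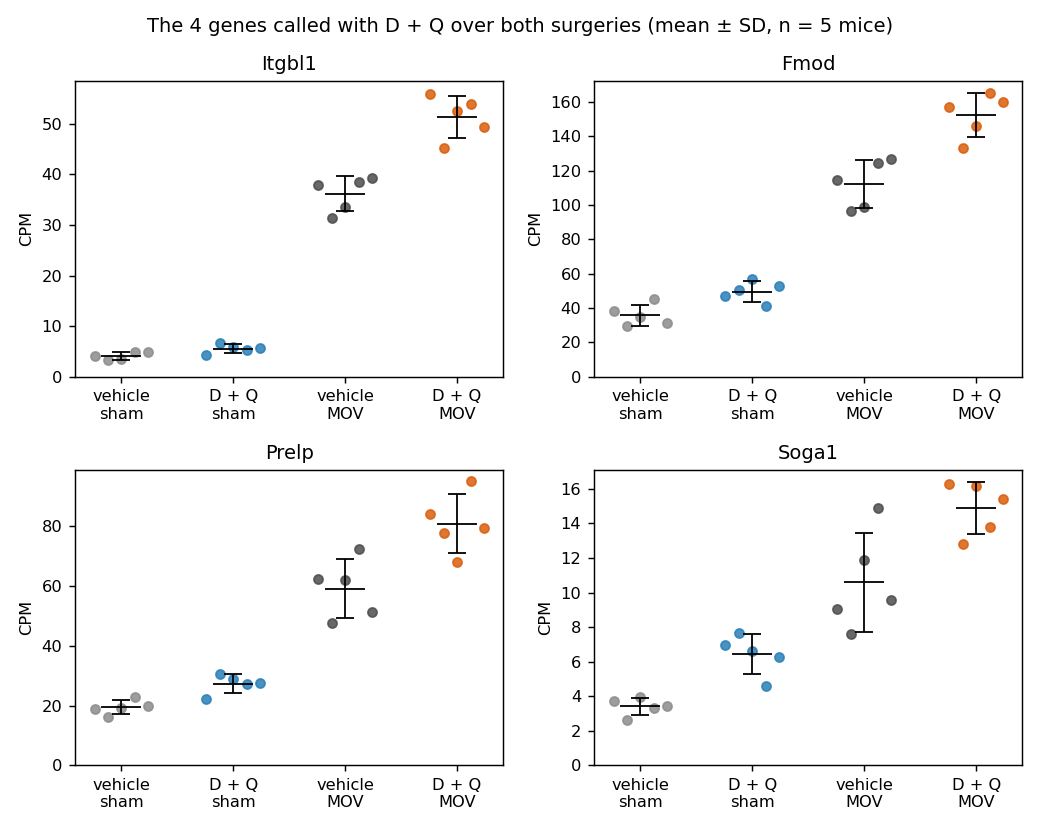
Level in CPM (linear axes from 0) of Itgbl1, Fmod, Prelp and Soga1 in each of the 20 mice, as points by group, with bars for the mean ± SD of 5 mice. In each panel both D + Q group means lie above the vehicle mean of the same surgery, from 5.56 against 4.13 CPM for Itgbl1 in sham muscle to 152 against 112 CPM for Fmod in MOV muscle.

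Since Itgbl1, Fmod and Prelp rose together by nearly the same fold, the sequence at their start sites is shown. The runs are RefSeq promoters of build GRCm38.p6, read 5′ to 3′ from 250 bases before to 50 bases after the annotated start, at chr14:123659890-123660189 (plus strand) for Itgbl1, chr1:134037004-134037303 (plus strand) for Fmod and chr1:133921352-133921651 (minus strand) for Prelp. Capitals mark matches, on either strand, to 5 motifs, namely the TATA box TATAAA, the GC box GGGCGG, the CCAAT box CCAAT, the AP-1 site TGANTCA and the TEAD site GGAATG.
Itgbl1: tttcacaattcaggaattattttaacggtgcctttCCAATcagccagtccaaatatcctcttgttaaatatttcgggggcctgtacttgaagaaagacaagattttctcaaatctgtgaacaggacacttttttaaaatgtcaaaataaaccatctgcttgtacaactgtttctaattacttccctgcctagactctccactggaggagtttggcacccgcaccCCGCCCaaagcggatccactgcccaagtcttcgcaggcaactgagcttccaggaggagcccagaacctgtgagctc
Fmod: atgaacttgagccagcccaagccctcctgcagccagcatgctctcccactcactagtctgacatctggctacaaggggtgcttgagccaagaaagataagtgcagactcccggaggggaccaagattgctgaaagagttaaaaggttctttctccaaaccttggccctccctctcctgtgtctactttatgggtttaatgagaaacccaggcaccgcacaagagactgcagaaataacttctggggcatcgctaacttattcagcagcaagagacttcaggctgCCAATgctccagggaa
Prelp: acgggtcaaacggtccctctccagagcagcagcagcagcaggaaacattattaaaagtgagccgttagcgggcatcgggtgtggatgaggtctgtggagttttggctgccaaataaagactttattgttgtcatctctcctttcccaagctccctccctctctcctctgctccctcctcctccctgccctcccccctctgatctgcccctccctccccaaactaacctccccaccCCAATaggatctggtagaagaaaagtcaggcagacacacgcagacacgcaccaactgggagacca
Each of the 3 held 1 CCAAT match, at -215 in Itgbl1, 35 in Fmod and -15 in Prelp relative to the start, and 37.4% of 32851 promoters held at least 1. Itgbl1 also held a GC box on the minus strand at -26, a motif found in 35.7% of promoters. TATAAA (13.6% of promoters), TGANTCA (7.81%) and GGAATG (14.7%) were in none of the 3, and no match overlapped another. These matches describe letters in a window and not sites shown to be used.

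The next 12 genes sat just above the threshold, at adjusted p-values between 0.0511 and 0.0513, so the count of 4 is sensitive to small shifts. Among those that were higher with D + Q were C1qtnf1 (log2 fold change 0.60), Itpkb (0.36), Kirrel (0.41), Chrdl1 (0.83), Tmod2 (0.48), Nav1 (0.40) and P2rx4 (0.38). Chrdl1 is a secreted BMP antagonist, Tmod2 caps actin filaments and P2rx4 is an ATP-gated cation channel. Relaxing the threshold to 0.1 gave 106 genes, 71 of them higher and 35 lower.

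Among named genes that were lower with D + Q, the 5 with the smallest p missed the threshold and are given as values. Qrsl1, a subunit of the enzyme that completes mitochondrial glutaminyl-tRNA, had a log2 fold change of -0.29 ± 0.056 (SE, adjusted p = 0.0511). It ranged from 20.6 to 22.2 CPM in vehicle sham mice and from 14.9 to 18.8 CPM in D + Q sham mice, without overlap, and from 12.0 to 14.7 and from 10.2 to 12.5 CPM in the MOV groups, with overlap. Crhr2, the urocortin receptor of muscle, had a log2 fold change of -0.35 ± 0.071 (SE, adjusted p = 0.0511). Its sham groups just failed to meet, at 39.05 to 55.0 CPM with vehicle and 35.0 to 39.05 CPM with D + Q, and its MOV groups overlapped (20.5 to 32.6 and 20.9 to 26.6 CPM). Opn1mw, the medium-wave cone opsin, had the largest fold of the 5, at -1.28 ± 0.254 (SE, adjusted p = 0.0511), from counts so low (0.243 to 4.48 CPM over all mice) that its levels are imprecise. The mitochondrial ribosome genes Mrps22 (-0.30 ± 0.064, SE) and Mrpl12 (-0.24 ± 0.053, SE) had adjusted p-values of 0.0591 and 0.0603. Mrpl12 ran from 73.3 to 91.4 CPM in vehicle MOV and from 63.6 to 72.2 CPM in D + Q MOV mice, without overlap, and its sham groups overlapped. Qrsl1, Opn1mw and Mrps22 each share bases with a gene on the opposite strand.

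Genes of 41 lists (29 of pathways, 12 of cell types) were then counted in the same model. Fmod and Prelp were the only list members with an adjusted p under 0.05, so the counts below are of nominal p-values and are to be read against the 7.43% higher and 5.79% lower among all genes. Counts of adjusted calls by DESeq2 are to be read against the 298 genes it called in all (202 higher and 96 lower). Neither the counts nor the medians were tested as sets, and lists that share members, such as collagen chains and fibroblast markers, are not separate results.

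The small leucine-rich proteoglycans shared 1 direction. All 12 tested members were higher with D + Q, 11 of them nominally, with a median log2 fold change of 0.41 that was 0.37 in sham and 0.43 in MOV. After Fmod and Prelp came decorin (Dcn), which binds collagen and TGF-β, at 0.37 ± 0.101 (SE, adjusted p = 0.128), then lumican (Lum, 0.51 ± 0.142, SE), keratocan (Kera, 0.52 ± 0.156, SE) and osteomodulin (Omd, 0.60 ± 0.197, SE). Dcn ran from 207 to 295 CPM in vehicle sham and 246 to 378 CPM in D + Q sham mice, and from 349 to 666 CPM in vehicle MOV and 539 to 705 CPM in D + Q MOV mice. Both pairs of groups overlapped, and the highest vehicle MOV mouse was mouse 4. With DESeq2, 6 of the 12 passed an adjusted p of 0.05.

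Collagen chains followed the same direction. Of 31 tested, 30 were higher and 21 nominally so (67.7%), 0 were nominally lower, and the median was 0.35 (0.43 in sham and 0.32 in MOV). By p the first was Col11a1, a minor fibrillar chain, at 0.54 ± 0.143 (SE, adjusted p = 0.12), with 20.1 to 27.5 CPM in vehicle MOV and 27.3 to 44.7 CPM in D + Q MOV mice but at most 1.42 CPM in sham mice. The main chains of type I and III collagen had large values with wide errors, namely Col1a1 0.63 ± 0.193 (SE), Col1a2 0.58 ± 0.156 (SE) and Col3a1 0.71 ± 0.211 (SE). Col3a1 averaged 105 ± 22.5 CPM in vehicle sham, 206 ± 122 in D + Q sham, 4038 ± 1057 in vehicle MOV and 5535 ± 598 in D + Q MOV muscle (SD, n = 5 each), and the groups overlapped in both surgeries. Basement membrane chains were also nominally higher, with Col4a1 at 0.29 and Col4a2 at 0.31. No chain passed the adjusted threshold in edgeR, and 8 did with DESeq2.

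Of 28 collagen processing enzymes 12 were nominally higher and 0 lower (median 0.24). They included the procollagen N-proteinase Adamts2 (0.40 ± 0.13, SE, adjusted p = 0.177), the lysyl hydroxylase Plod2 (0.45 ± 0.145, SE) and the cross-linking lysyl oxidase Lox (0.37 ± 0.122, SE). Adamts2 ran from 38.6 to 83.9 CPM in vehicle MOV and from 76.4 to 89.3 CPM in D + Q MOV mice. Matricellular and fiber-associated glycoproteins had 14 of 21 nominally higher and 0 lower (median 0.37). Fibulin-5 (Fbln5), an elastic fiber protein, was at 0.37 ± 0.086 (SE, adjusted p = 0.0684), its sham groups apart at 7.67 to 10.8 and 11.7 to 14.3 CPM and its MOV groups overlapping. Thbs2 (0.54 ± 0.125, SE), Comp (0.56 ± 0.137, SE) and fibronectin (Fn1, 0.65 ± 0.211, SE) followed. DESeq2 gave 2 adjusted calls among the processing enzymes and 6 among the matricellular genes.

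Proteases that cut this matrix and their inhibitors form 2 lists, in which no member had an adjusted p under 0.05. Mmp14, the membrane-bound collagenase, was at 0.54 ± 0.116 (SE, adjusted p = 0.062). Its levels were 9.15 to 12.5 CPM in vehicle sham and 14.1 to 20.8 CPM in D + Q sham mice, without overlap, and 89.1 to 164 and 141 to 220 CPM in the MOV groups, with overlap. In all, 5 of 17 metalloproteinases and TIMPs were nominally higher and 0 lower (median 0.14), the others being Mmp2 (0.50), Mmp11 (0.43), Mmp3 (0.61) and the inhibitor Timp2 (0.33). Of the Adamts proteases, 7 of 17 were nominally higher and 0 lower (median 0.29). Adamts15 had the smallest p at 0.50 ± 0.11 (SE, adjusted p = 0.0603), with 1.44 to 2.59 and 2.36 to 4.14 CPM in the sham groups and 11.5 to 17.6 and 15.8 to 22.2 CPM in the MOV groups. Adamts1, an aggrecanase that is also anti-angiogenic, was at 0.52 ± 0.143 (SE, adjusted p = 0.135). Its sham groups did not overlap (28.2 to 35.7 and 38.5 to 55.4 CPM), and its MOV groups did (27.1 to 61.7 and 46.4 to 87.1 CPM). The urokinase gene Plau, which activates plasmin, was at 0.37 ± 0.128 (SE, adjusted p = 0.205).

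Markers of connective tissue cells were higher as well. All 12 fibroblast markers were nominally higher (median 0.37), none of them at an adjusted p under 0.05 in edgeR and 5 with DESeq2. Their summed level ran from 1110 to 1646 CPM in vehicle sham, 1316 to 2174 CPM in D + Q sham, 6654 to 13256 CPM in vehicle MOV and 11774 to 15869 CPM in D + Q MOV mice, so the groups overlapped within each surgery. All 8 tenocyte markers were higher and 7 nominally so (median 0.48), among them the tendon transcription factor Mkx (0.65 ± 0.2, SE) and tenomodulin (Tnmd, 0.51 ± 0.157, SE). Their sum did not overlap in sham muscle (85.3 to 115 and 117 to 130 CPM) and did in MOV muscle (652 to 1050 and 873 to 1168 CPM). Several of these markers are themselves matrix genes, and the part of cell number in the matrix values was not tested. The other cell type lists had smaller shares. Macrophage markers had 1 of 14 nominally higher, Adgre1 at 0.51 ± 0.23 (SE, adjusted p = 0.347), though 13 of the 14 were above 0 (median 0.23). With 1 mouse left out the count ran from 0 to 5 of 14 and the median from 0.13 to 0.35, the lowest median without vehicle MOV mouse 2 and the highest count and median without vehicle MOV mouse 4. Endothelial markers had 3 of 18 higher (median 0.06, Tek at 0.22), pericyte and smooth muscle markers 2 of 12 (Pdgfrb at 0.28 and Notch3 at 0.21), and neutrophil and mast cell markers 2 of 7 (median 0.46), both of them mast cell proteases, Cpa3 at 0.74 and Cma1 at 0.62. Lymphocyte markers had 1 of 6 higher, Cd4 at 0.91, which was at 0 in 7 mice. Satellite and myogenic cell markers had 1 of 12 lower (Cdh15 at -0.16), adipocyte markers 1 of 10 lower (Pnpla2 at -0.26), and Schwann cell, erythroid, and denervation and junction markers 0 of 9, 5 and 10 in either direction, the smallest p being those of Pmp22 (0.22), Hbb-bt (-0.44) and Sln (-0.36). Some medians differed in sign between sham and MOV muscle. They were 0.17 and -0.08 for endothelial, 0.27 and -0.02 for satellite and myogenic, and 0.11 and -0.32 for denervation and junction markers.

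**Figure D2:**
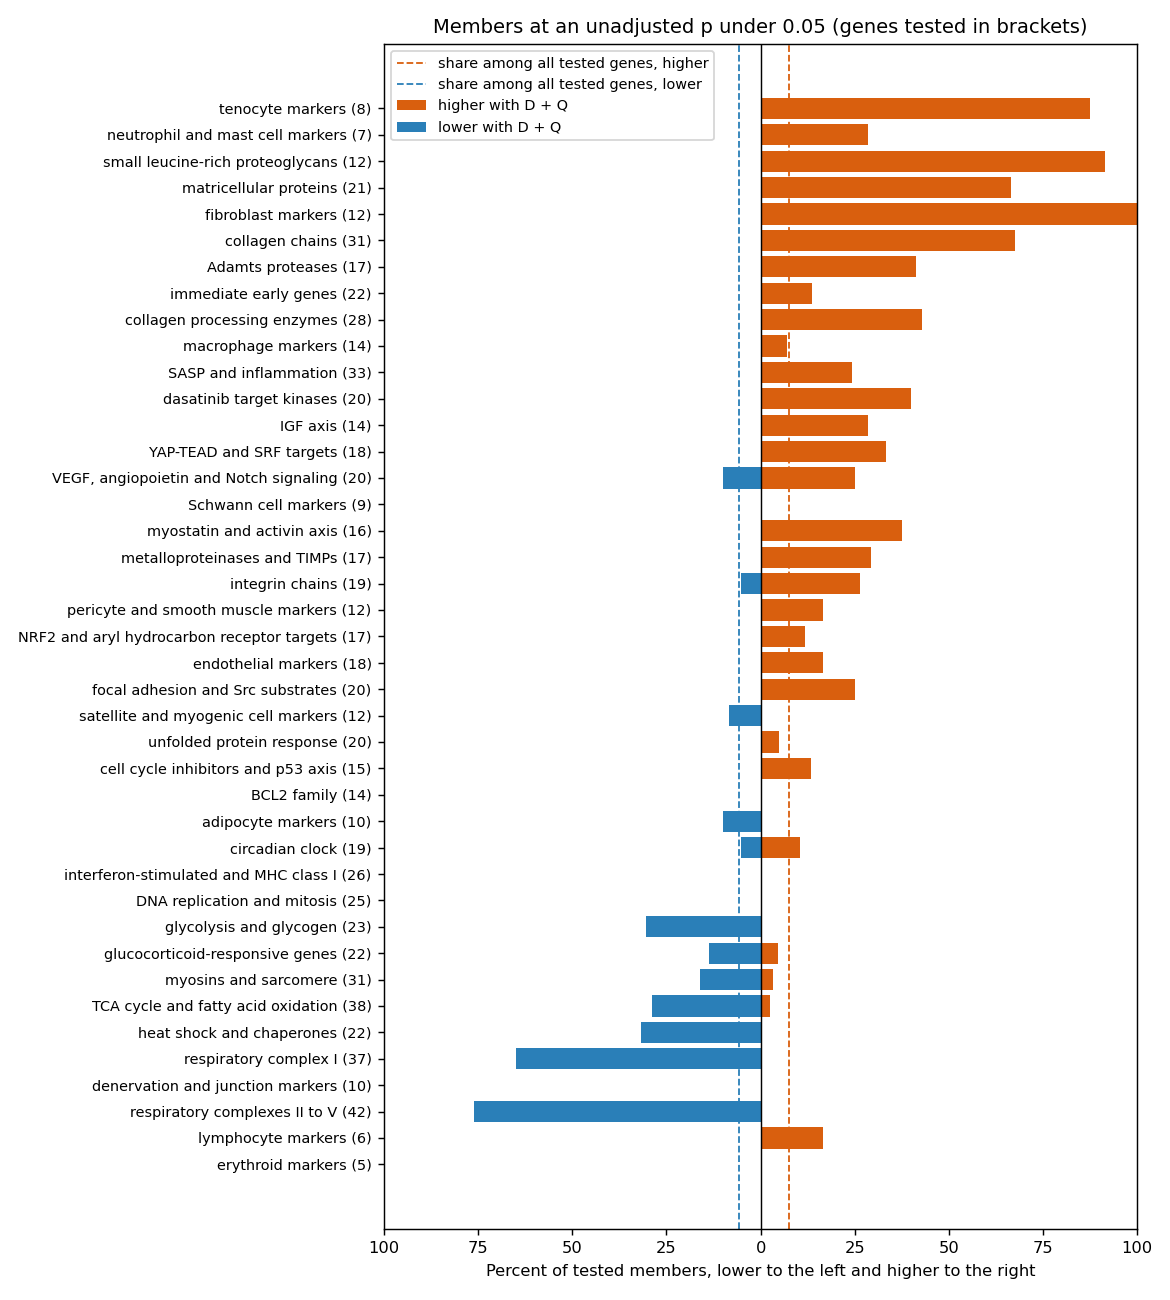
Percent of each list's tested genes (number in brackets) at an unadjusted p under 0.05 for D + Q against vehicle over both surgeries, with higher genes to the right in orange, lower genes to the left in blue, and dashed lines at the shares among all tested genes (7.43% and 5.79%). Bars for matrix and fibroblast lists reach 41.2% to 100% on the right, except metalloproteinases and TIMPs at 29.4%, and those for the respiratory complexes reach 64.9% and 76.2% on the left.

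Genes of oxidative metabolism lay on the other side, by small amounts. All 37 tested genes of respiratory complex I, which takes electrons from NADH, were lower with D + Q and 24 nominally so (64.9%), with a median of -0.12 (-0.10 in sham and -0.17 in MOV). Ndufb7 had the smallest p, at -0.16 ± 0.041 (SE, adjusted p = 0.1), with 94.1 to 112 CPM in vehicle MOV and 87.3 to 93.2 CPM in D + Q MOV mice, without overlap, while its sham groups overlapped (116 to 142 and 111 to 123 CPM). Ndufb10 was at -0.19 ± 0.055 (SE). Of 42 genes of complexes II to V all were lower and 32 nominally so (76.2%), with a median of -0.14. Cytochrome c (Cycs) was at -0.21 ± 0.046 (SE, adjusted p = 0.0603), with 278 to 345 and 244 to 296 CPM in the sham groups and 176 to 205 and 156 to 178 CPM in the MOV groups. Sdhd of complex II was at -0.18 ± 0.043 (SE) and the ATP synthase subunit Atp5g1 at -0.23 ± 0.06 (SE). With total counts alone, 16 and 21 genes of these lists were nominally lower and their medians were -0.09 and -0.10. No member passed the adjusted threshold in edgeR, and 8 and 9 did with DESeq2.

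TCA cycle and fatty acid oxidation genes had 11 of 38 nominally lower and 1 higher (median -0.09). Without vehicle MOV mouse 4, 18 were nominally lower, where up to 1132 of all tested genes were so with 1 mouse left out. The malate dehydrogenase Mdh1 was at -0.25 ± 0.056 (SE, adjusted p = 0.062), its MOV groups apart at 451 to 545 and 393 to 423 CPM and its sham groups overlapping at 593 to 824 and 498 to 637 CPM, and the exception was the carnitine palmitoyltransferase Cpt1a at 0.27. Glycolysis and glycogen genes had 7 of 23 lower (3 without vehicle sham mouse 2) and 0 higher (median -0.07), with Gapdh at -0.17 ± 0.052 (SE, adjusted p = 0.16). Heat shock genes and chaperones had 7 of 22 lower and 0 higher (median -0.09), and 6 of the 7 were small heat shock proteins of muscle. Hspb3 was at -0.23 ± 0.071 (SE, adjusted p = 0.156) and Hspb6 at -0.30. Cryab, the most studied of them, was at -0.62 ± 0.224 (SE, adjusted p = 0.234), on vehicle MOV levels of 689 to 2490 CPM against 501 to 745 CPM with D + Q, where the groups overlapped and vehicle sham and D + Q sham mice were at 510 to 848 and 492 to 634 CPM. Sarcomere genes had 5 of 31 lower and 1 higher (median -0.08), the former count running from 1 to 8 with 1 mouse left out (8 without vehicle MOV mouse 4), with the Z-disc actinin Actn2 at -0.29 ± 0.114 (SE, adjusted p = 0.262). The myosin heavy chains Myh4 (0.11 ± 0.067, SE), Myh1 (-0.16 ± 0.145, SE) and Myh2 (-0.22 ± 0.115, SE) had nominal p-values above 0.05.

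**Figure D3:**
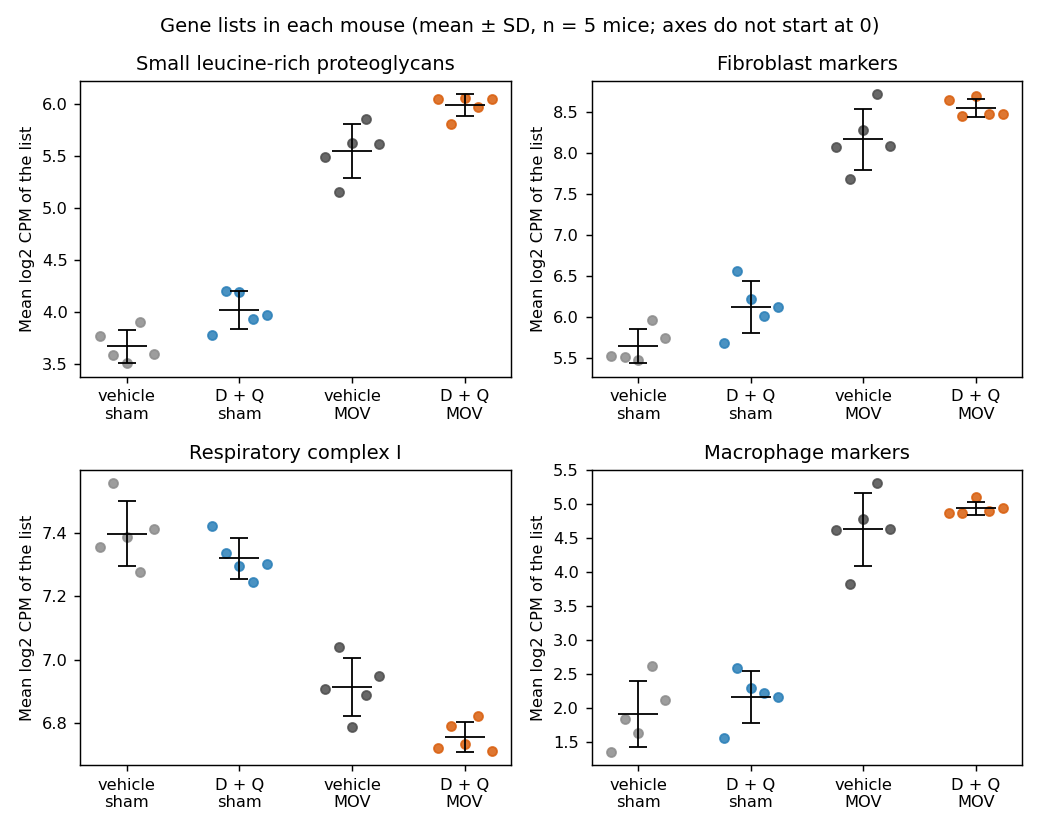
Mean log2 CPM of the tested genes of 4 lists in each mouse, as points by group, with bars for the mean ± SD of 5 mice (axes do not start at 0). Small leucine-rich proteoglycans averaged 4.01 ± 0.183 with D + Q and 3.67 ± 0.16 with vehicle in sham muscle and 5.99 ± 0.105 and 5.55 ± 0.258 in MOV muscle, complex I averaged lower with D + Q in both surgeries, and vehicle MOV mice 2 and 4 are the lowest and highest of their group for fibroblast and macrophage markers.

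Few cell cycle inhibitor, p53 target and BCL2 family genes had a nominal p. Of 15 cell cycle inhibitors and p53 targets, 2 were nominally higher and 0 lower (median 0.01), namely the inhibitor Cdkn1c at 0.32 ± 0.079 (SE, adjusted p = 0.0938) and Glb1, the gene of senescence-associated β-galactosidase, at 0.29 ± 0.128 (SE, adjusted p = 0.316). Cdkn1c ran from 14.8 to 19.4 and 18.3 to 24.8 CPM in the sham groups and from 35.9 to 56.8 and 51.5 to 65.7 CPM in the MOV groups. Cdkn1a, which encodes p21, had a log2 fold change of 0.06 ± 0.119 (SE, adjusted p = 0.865), and Cdkn2a, which encodes p16, one of 0.30 ± 0.433 (SE, adjusted p = 0.822). Cdkn2a averaged 0.0232 ± 0.0317 and 0.0584 ± 0.106 CPM in vehicle and D + Q sham mice and 1.27 ± 0.741 and 1.5 ± 0.919 CPM (SD, n = 5 each) in vehicle and D + Q MOV mice. None of 14 BCL2 family genes, which include survival proteins that senescent cells are held to lean on, was nominally different (median -0.001). Mcl1 had the smallest p at -0.07 ± 0.048 (SE, adjusted p = 0.594), Bcl2 was at -0.07 ± 0.11 (SE) and Bcl2l1 at -0.03 ± 0.083 (SE).

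SASP and inflammation genes had 8 of 33 nominally higher and 0 lower (median 0.22). The 8 were Mmp3, Timp2, Plau, Plat, Inhba and the IGF binding proteins Igfbp3, Igfbp5 and Igfbp6. Without vehicle MOV mouse 4, 14 of the 33 were nominally higher, where up to 1647 of all tested genes were so with 1 mouse left out. Mmp3 was at 0.61 ± 0.175 (SE, adjusted p = 0.135), with 6.95 to 13.1 CPM in vehicle MOV and 11.6 to 15.9 CPM in D + Q MOV mice. The cytokine genes had wide errors, with Ccl2 at 0.40 ± 0.366 (SE), Il1b at 0.17 ± 0.624 (SE) and Cxcl1 at -0.30 ± 0.435 (SE), and Il6, Tnf and Il1a were below the count minimum. Interferon-stimulated and MHC class I genes had 0 of 26 in either direction (median -0.03, Gbp2 having the smallest p at 0.34 ± 0.282, SE). Their medians in sham and MOV were -0.30 and 0.13. DNA replication and mitosis genes had 0 of 25 (median -0.07), with Rrm2 at -0.44 ± 0.221 (SE, adjusted p = 0.389).

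Of 20 kinases that dasatinib inhibits, 8 were nominally higher and 0 lower (median 0.22), none at an adjusted p under 0.05 in edgeR or DESeq2 with all mice. Without vehicle MOV mouse 4, edgeR called 4 of them, all higher, in a fit that called 416 genes in all (300 higher and 116 lower). The smallest p was that of Pdgfrb, the PDGF receptor of pericytes and fibroblasts, at 0.28 ± 0.084 (SE, adjusted p = 0.154), with 13.5 to 18.1 and 15.8 to 25.1 CPM in the sham groups and 34.5 to 51.8 and 41.8 to 53.3 CPM in the MOV groups. The others were Kit (0.60), the collagen receptor Ddr2 (0.33), Fyn (0.32), Epha2 (0.42), Pdgfra (0.29), Frk (0.44) and Btk (0.66). Kit, Btk and Pdgfra are also marks of mast cells, myeloid and B cells, and fibroblasts. Src was at 0.19 ± 0.094 (SE) and Abl1 at 0.05 ± 0.061 (SE), with nominal p-values above 0.05. Targets of NRF2 and the aryl hydrocarbon receptor, which flavonoids can bind or induce, had 2 of 17 higher and 0 lower (median 0.08). They were Nqo1 at 0.25 ± 0.082 (SE, adjusted p = 0.168), whose sham groups did not overlap at 16.6 to 25.1 and 25.6 to 30.8 CPM, and Gclm at 0.16, while Hmox1 (0.16 ± 0.148, SE) and Cyp1a1 (-0.03 ± 0.257, SE) had wide errors.

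Adhesion and mechanical signaling genes were partly higher. Integrin chains had 5 of 19 nominally higher and 1 lower (median 0.12). The collagen receptor chain Itga11 was at 0.59 ± 0.134 (SE, adjusted p = 0.0816), with 15.9 to 27.4 CPM in vehicle MOV and 25.95 to 37.4 CPM in D + Q MOV mice, and the chain that was lower was Itga7, the laminin receptor of muscle fibers, at -0.32 ± 0.095 (SE, adjusted p = 0.156). Focal adhesion genes and Src substrates had 5 of 20 higher and 0 lower (median 0.06), among them Parva (0.30) and Actn4 (0.27). YAP-TEAD and SRF targets had 6 of 18 higher and 0 lower (median 0.17), among them the LIM protein Ajuba at 0.57 ± 0.167 (SE, adjusted p = 0.137) and Ccn2 at 0.66. Immediate early genes had 3 of 22 higher and 0 lower, with a median of 0.29 over genes of wide error. Without vehicle MOV mouse 4 these values were 13 of 22 and 0.54, and the lowest median with 1 mouse left out was 0.15, without D + Q MOV mouse 5. Up to 1647 of all tested genes were nominally higher with 1 mouse left out. The largest was the nuclear receptor Nr4a2 at 0.93 ± 0.249 (SE, adjusted p = 0.124), whose sham groups did not overlap (0.598 to 0.990 and 1.12 to 2.85 CPM) and whose MOV groups did (2.91 to 8.32 and 5.98 to 17.98 CPM).

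In growth and signaling lists the direction was mixed. The IGF axis had 4 of 14 nominally higher and 0 lower (median 0.19). Igf1, the local growth factor of overloaded muscle, was at 0.37 ± 0.116 (SE, adjusted p = 0.168), with 9.25 to 15.4 and 12.5 to 16.4 CPM in the sham groups and 60.3 to 117 and 89.6 to 148 CPM in the MOV groups. Igfbp3 was at 0.31 ± 0.091 (SE, adjusted p = 0.137). The myostatin and activin axis had 6 of 16 higher and 0 lower (median 0.14), among them the follistatin-like gene Fstl1 at 0.51 ± 0.158 (SE, adjusted p = 0.166) and the activin subunits Inhba (0.56) and Inhbb (0.54), and myostatin itself (Mstn) was at 0.16 ± 0.083 (SE, adjusted p = 0.408). VEGF, angiopoietin and Notch genes had 5 of 20 higher and 2 lower (median 0.16). Angpt1 was at 0.23 ± 0.067 (SE, adjusted p = 0.138), its MOV groups apart at 13.1 to 15.5 and 16.0 to 18.3 CPM, and Vegfb was at -0.21. Unfolded protein response genes had 1 of 20 higher (Pdia4 at 0.20) and 0 lower (median 0.01). Clock genes had 2 of 19 higher, Npas2 at 0.62 ± 0.2 (SE, adjusted p = 0.167) and Nfil3 at 0.29, and Nr1d1 lower at -0.23. Glucocorticoid-responsive genes had 1 of 22 higher and 3 lower (median -0.08). Nfkbia, the inhibitor of NF-κB, was at -0.25 ± 0.057 (SE, adjusted p = 0.0648), without overlap in sham muscle (15.3 to 17.6 and 12.5 to 14.1 CPM) and with overlap in MOV muscle (14.4 to 20.1 and 14.9 to 16.4 CPM). Ddit4, an inhibitor of mTORC1, was at -0.34 ± 0.151 (SE, adjusted p = 0.33), with 4.60 to 8.06 and 2.34 to 7.34 CPM in the sham groups and 11.7 to 16.4 and 8.06 to 12.0 CPM in the MOV groups.

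**Figure D4:**
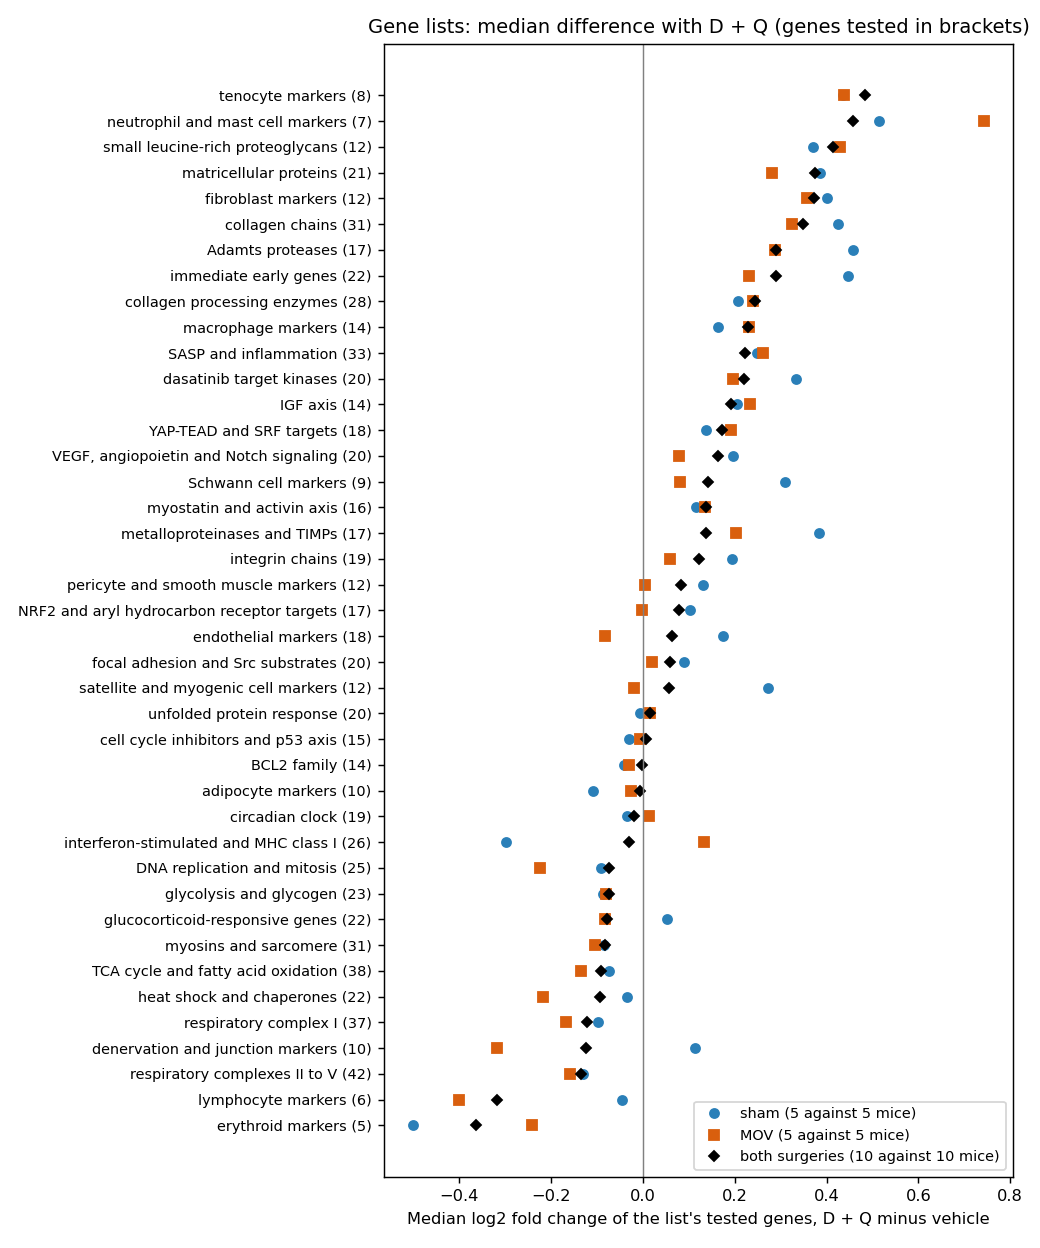
Median log2 fold change (D + Q minus vehicle) of the tested genes in each of 41 lists (number over both surgeries in brackets), for sham mice (blue circles), MOV mice (orange squares) and both (black diamonds). Matrix, fibroblast and tenocyte lists lie right of 0 in both surgeries and the respiratory complexes left of 0 in both, whereas interferon-stimulated genes lie at -0.30 in sham and 0.13 in MOV muscle.

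The additive model assumes the same D + Q effect under both surgeries, which the separate fits let one examine, since sham and MOV mice share no animals. In sham muscle 30 of 13926 genes (0.215%) had an adjusted p under 0.05, 26 higher and 4 lower. In MOV muscle 0 of 15238 genes (0%) did in edgeR, where 1340 were nominally different, and 11 did in DESeq2. Of 13745 genes tested in both, 8129 (59.1%) had the same sign. Among the 1411 with a nominal p in sham muscle, 1033 (73.2%) had the same sign in MOV muscle, and 199 were also nominally different there in the same direction against 18 in the opposite one. Of the 30 sham calls, 27 (90%) kept their sign in MOV muscle and 7 had a nominal p there, Mmp14, Crhr2, Nav1, Lama4, Prelp, Soga1 and Gm20683. Across genes, which are not independent replicates, the log2 fold changes in sham and MOV muscle correlated weakly (Pearson r = 0.17, Spearman rho = 0.22, 13745 genes).

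The strictest form of a common effect is a gene whose 5 D + Q mice lie on the same side of the 5 vehicle mice in both surgeries. It was met by 2 higher genes (0.0127% of 15700), Inpp1 and P2rx4, and by 2 lower genes (0.0127%), Tomm22 and Bbs5. P2rx4 ran from 3.12 to 3.86 CPM in vehicle sham, 4.20 to 5.78 in D + Q sham, 9.55 to 13.6 in vehicle MOV and 13.9 to 16.0 in D + Q MOV mice. Inpp1, an inositol phosphatase, was at 5.77 to 6.21 and 6.25 to 7.68 CPM in the sham groups and at 6.57 to 7.69 and 7.91 to 8.61 CPM in the MOV groups. Bbs5, a cilium protein, was at 2.99 to 4.24 and 2.09 to 2.83 CPM in the sham groups and at 2.89 to 3.68 and 2.23 to 2.79 CPM in the MOV groups. Tomm22, a receptor for mitochondrial protein import that shares bases with Josd1 on the opposite strand, was at 35.2 to 38.6 and 31.8 to 35.1 CPM in the sham groups and at 36.8 to 39.2 and 31.5 to 36.6 CPM in the MOV groups. The adjusted p-values of these genes in the additive model were between 0.0513 and 0.156, and these genes were singled out by this count and not by the rule for named genes.

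A test of the difference between the D + Q effects in MOV and sham muscle called 2 of 15700 genes (0.0127%), Tcf15 and Sgk1, with 897 genes at a nominal p. Tcf15, a bHLH factor expressed in muscle capillary endothelium, was at 6.90, 5.64, 7.93, 6.47 and 6.13 CPM in vehicle sham and at 11.9, 8.41, 10.1, 8.65 and 11.6 CPM in D + Q sham mice. In MOV muscle it was at 8.56, 8.82, 9.80, 9.67 and 8.96 CPM with vehicle and at 6.38, 6.54, 6.80, 6.21 and 5.40 CPM with D + Q. The groups did not overlap in either surgery and lay in opposite order, and the effects differed by a log2 value of -1.16 ± 0.163 (SE, adjusted p = 0.00328). Sgk1, a kinase induced by glucocorticoids, was at 102.7 to 173 CPM in vehicle sham and 64.8 to 79.2 CPM in D + Q sham mice but at 52.1 to 80.6 and 60.7 to 83.1 CPM in the MOV groups, so the sham groups did not overlap and the MOV groups did (difference of effects 1.25 ± 0.179, SE, adjusted p = 0.00676). With the replicate number as a block Sgk1 was no longer called. Over both surgeries Tcf15 was at 0.02 and Sgk1 at -0.43, and neither was called, the additive coefficient being an average over unlike effects for them.

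The number of genes called over both surgeries varied when single mice were left out. Without vehicle MOV mouse 4 it was 416 (300 higher and 116 lower), without D + Q sham mouse 1 it was 52, without vehicle sham mouse 4 it was 30, without D + Q MOV mouse 2 it was 20, without vehicle MOV mouse 3 it was 15 and without D + Q MOV mouse 4 it was 8, and in the other 14 fits it was between 3 and 6. Vehicle MOV mouse 4 had the highest summed fibroblast (13256 CPM) and macrophage (1032 CPM) markers of the vehicle MOV mice, and vehicle MOV mouse 2 the lowest (6654 and 346 CPM). Their part in the count was not tested. Without mice 2 and 4 of vehicle MOV, 102 genes were called (83 higher and 19 lower), and 50 when vehicle sham mouse 2 was left out as well. Without both vehicle MOV mice the medians were 0.39 for small leucine-rich proteoglycans, 0.37 for collagen chains, 0.41 for fibroblast markers and -0.12 for either respiratory list, with 11 of 12, 19 of 31, 12 of 12, 22 of 37 and 30 of 42 members at a nominal p. Over this and the other alternatives that did not leave out 1 mouse, 1002 to 1602 of all tested genes were nominally higher and 457 to 1054 lower. Fmod and Itgbl1 were called in each of 31 alternatives and Prelp in 30. Soga1 was called in 21 of the 30 that tested it, since it has no length or GC value and was not in the fit corrected for them.

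**Figure D5:**
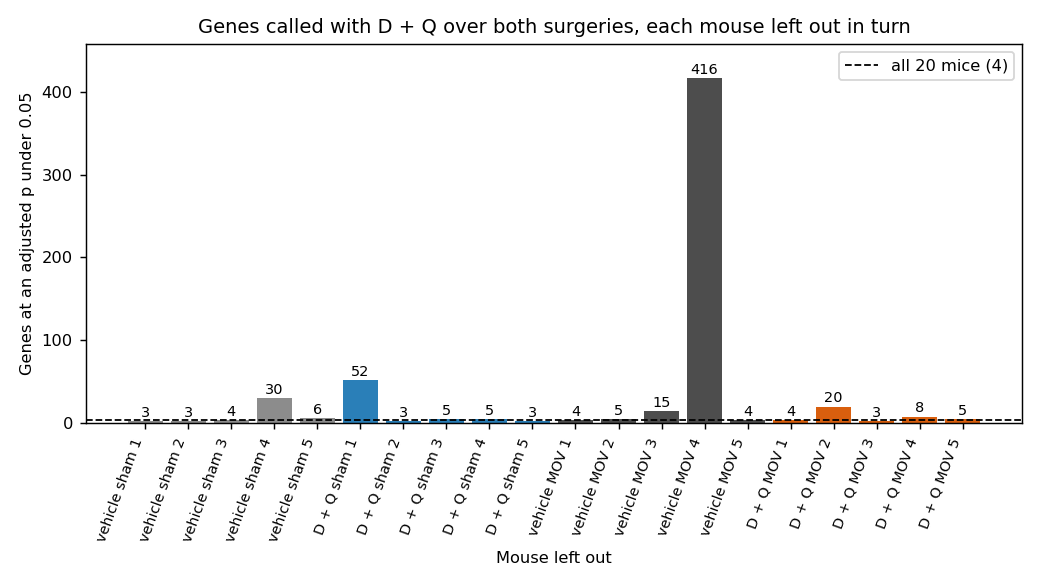
Number of genes at an adjusted p under 0.05 for D + Q against vehicle over both surgeries when the mouse on the x axis was left out, as bars colored by group, with a dashed line at the 4 genes called with all 20 mice. The bar for vehicle MOV mouse 4 stands at 416, the next at 52, and the lowest at 3.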

How the data were processed

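Plantaris RNA-seq of 20 mice was analysed. Per the labels and methods, the authors aligned reads with STAR 2.7.8a to GRCm39 and estimated counts per gene with Partek's expectation-maximization quantifier. They deposited these estimated counts without normalization, 22660 rows with at least 10 counts in all, of which 20 carry a repeated gene name and were treated separately. About 29.8% of the values are not whole and were rounded.

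Counts were tested with edgeR 4.0.16 (R 4.3.3) by the quasi-likelihood test with robust fitting, TMM scaling and Benjamini-Hochberg adjustment (threshold 0.05), on genes that reached 10 counts in 5 or more mice of the fit. The main model was surgery plus treatment over all mice. Sham and MOV were also fitted alone, and the interaction over all mice. The study's text compares the treatments in MOV muscle. SE values are from the fitted coefficient and its F statistic. Every adjusted p given for a gene is edgeR's unless DESeq2 is named.

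Totals of 17887532 to 26234518 counts limit precision for low genes, and SD and SE cover the spread between samples, which the labels number 1 to 5 per group. No pair of libraries within a group differed by as little as counting noise. Positions come from the GENCODE annotation of GRCm39 (97.1% of tested genes) and promoters from RefSeq (GRCm38.p6), which held Itgbl1, Fmod and Prelp of the 4 called genes.

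The members and gene lists were chosen with earlier results of these data known. Named genes are up to 10 called genes per direction with the smallest p (5 as values where none is called, leaving out predicted models), 8 genes the paper names, the called or smallest-p members of each list, and the top interaction gene. Sgk1, other list members (mostly those of smallest p) and genes whose groups do not overlap were added after their values were seen. A row of a list counts once where the list holds its older and newer symbols. Alternatives were RLE factors, total counts, DESeq2 1.42.0, limma-voom (limma 3.58.1) with sample quality weights, other count minimums, the replicate number as a block, gene length and GC correction (97.5% of tested genes), the average over the 4 groups, all 20 mice in 1 fit for each surgery, and each mouse left out. Leaving out vehicle MOV mice 2 and 4, and vehicle sham mouse 2 with them, was chosen after seeing the data. Some genes that the rule for named genes or a list would include are not reported here.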

Additional observations from a re-analysis of the deposited data

Results flagged for a closer look

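In 13 of 216 groups of 5 mice examined for named genes, 1 mouse stood farther from the rest than Dixon's critical value, where chance gives about 5%. Vehicle sham mouse 2 was high for Mrpl12 (124 CPM against 96.3 to 104 in its group) and Mdh1 (824 against 593 to 647 CPM). D + Q sham mouse 3 was low for Col11a1 (0.342 against 1.16 to 1.42 CPM) and Angpt1 (14.3 against 18.1 to 19.2 CPM), and D + Q sham mouse 2 was high for Fstl1 (119.5 against 47.8 to 66.8 CPM) and Pdia4 (13.1 against 8.89 to 9.86 CPM). D + Q sham mouse 4 was high for Pnpla2 (229.8 against 146 to 169 CPM). D + Q MOV mouse 2 was low for Itga11 (25.95 against 34.1 to 37.4 CPM) and high for Gbp2 (26.8 against 6.34 to 10.6 CPM) and Cpa3 (2.45 against 1.24 to 1.56 CPM), and D + Q MOV mouse 5 was high for Nr4a2 (17.98 against 5.98 to 8.64 CPM). Vehicle MOV mouse 5 was high for Hspb3 (30.4 against 21.4 to 23.6 CPM) and vehicle MOV mouse 2 for the globin Hbb-bt (83.0 against 15.9 to 28.8 CPM). None of these values belongs to Itgbl1, Fmod, Prelp or Soga1.

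The D + Q effect differed between surgeries, MOV minus sham, for Tcf15 by -1.16 and for Sgk1 by 1.25 on the log2 scale (edgeR's interaction test). The block is given below.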

How the results depend on the processing

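Over both surgeries 4 genes were called. The count was 17 with RLE factors, 2 with total counts, 298 with DESeq2, 123 with limma-voom, 30 without a filter on low counts, 8 with at least 10 counts in every mouse, 12 with the replicate block, 23 as the average of 4 groups, 102 without vehicle MOV mice 2 and 4, 50 without vehicle sham mouse 2 as well, and 3 to 416 with each mouse left out. With gene length and GC correction it was 3, in a fit that did not hold Soga1. Itgbl1 and Fmod were called in each of these alternatives. Genes nominally lower, 909 with all mice, numbered 457 with total counts, up to 1054 in the other alternatives and 749 to 1132 with each mouse left out.

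In sham muscle (30 genes) the count was 49 with total counts, 133 with DESeq2, 67 without a filter, 19 with the replicate block, 8 with gene length and GC correction, 19 with all 20 mice in 1 fit, and 2 to 74 with each mouse left out, where 2 was reached without D + Q mouse 3 or 5, 3 without vehicle mouse 1, 2 or 3, 12 without D + Q mouse 2, 15 without vehicle mouse 4 and 74 without vehicle mouse 5. In MOV muscle (0 genes) it was 11 with DESeq2, 2 with the replicate block, 7 without vehicle mice 2 and 4, and 0 to 2 with each mouse left out. For the interaction (2 genes) it was 1, Tcf15, with the replicate block and 2 to 3 with each mouse left out. The cause of these shifts was not tested.

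Mice of the same replicate number showed little likeness across groups, which cannot show whether they were handled in pairs. Over 30 same-numbered pairs the correlation of deviations from the group means ran from -0.15 to 0.19, 2 exceeded 0.1, and 3 of 20 mice correlated best with their own number. No called gene lost its call over both surgeries under the block.

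Of the named genes, Rrm2 was recorded as reversed to 0.10 with at least 10 counts in every mouse, but this value cannot be its own. Rrm2 was at 0.153 CPM in D + Q sham mouse 5, which is under 10 counts in a library of 22393065. That filter therefore leaves Rrm2 out, and its sign under it was not tested. Hbb-bt reversed to 0.0501 without the 3 vehicle mice, and Tcf15, near 0, lay between -0.0378 and 0.0853 with each mouse left out. Low counts limit the values of Opn1mw, Cdkn2a and Cd4, among others.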
